A study of Homo sapiens with 6 samples.

Results

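The mitochondrial ribosomal protein genes were taken as every protein-coding gene whose symbol begins with MRPL or MRPS followed by a digit. This rule found 78 of the 29538 genes counted, and all 78 passed the filter on low counts and were tested. By the roles of their proteins, 51 belonged to the large subunit and 26 to the small subunit. MRPS18A and MRPS30 carry small-subunit symbols but their proteins sit in the large subunit, and they were placed there. MRPS36 also carries such a symbol, but its protein is a component of the 2-oxoglutarate dehydrogenase complex. MRPS36 was placed in neither subunit, but it is counted among the 78 members in all values for the whole set.

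Mitochondria carry their own ribosome, which makes the membrane subunits of the respiratory chain that the mitochondrial genome encodes. Its rRNAs come from that genome, whereas all of its proteins come from nuclear genes, are made in the cytosol and are then imported. Part of them descend from bacterial ribosomal protein families, and part are found only in mitochondrial ribosomes.

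The libraries came from MDA-MB-231, an established human breast cancer line of mesenchymal character, and all 6 cultures were transfected with siRNA by means of Lipofectamine RNAiMAX (4 µL per well). In 3 cultures (siNC) the siRNA was a negative control and in 3 (siBYSL) it was a single siRNA against BYSL, in each case 160 pmol per well, with fresh medium at 6 h and RNA collection at 48 h. BYSL encodes bystin, which acts in the assembly of the small subunit of the cytosolic ribosome. The comparison asked which transcripts changed when BYSL was depleted, in 1 cell line and with 1 siRNA.

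Poly(A)-selected, strand-marked RNA-seq gave 27754883 to 32088817 counted reads per library, and counts of single members ran from 167 (MRPL2) to 6658 (MRPS10) per library. At least 500 reads were counted in every library for 75 of the 78 members. BYSL itself stood at 104, 94.5 and 101 CPM in siNC and at 15.9, 15.7 and 17.4 CPM in siBYSL, which was 16.4% of control (log2 fold change -2.61, SE 0.067, edgeR adjusted p = 9.4e-09). CPM is the read count of a gene scaled to a library size of 1e6 reads, after TMM correction of that size. All 5 markers of MDA-MB-231 were detected, with summed levels of 5266 to 5343 CPM in the siNC libraries and 4450 to 4655 CPM in the siBYSL libraries. Of these, 4 fell, namely AXL (log2 fold change -0.51, edgeR adjusted p = 3e-05), CAV1 (-0.47, 0.000148), MSN (-0.23, 0.0334) and VIM (-0.21, 0.00823), and CD44 rose (0.19, 0.0143). The luminal markers ESR1, PGR and FOXA1 stood under 0.4 CPM in each library, and the other luminal markers (CDH1, EPCAM, GATA3 and KRT19) summed with them to 314 to 434 CPM. Of the luminal markers, CDH1 (log2 fold change 1.04, adjusted p = 6.6e-05) and EPCAM (0.54, adjusted p = 0.000164) rose and KRT19 fell (-0.34, adjusted p = 0.00752), and the part of either marker list in the results on the members was not tested. Leukocyte markers summed to 0.25 to 0.87 CPM and endothelial markers to 5.08 to 6.67 CPM.

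Library siBYSL 3 stood apart from siBYSL 1 and 2 for these genes, and the main counts of called genes are given with and without it. Counts by bacterial or mitochondria-specific origin, promoter motif, neighbouring gene and exon overlap are given for the fit of all libraries only. In bulk RNA, fewer cells and less RNA per cell cannot be told apart. Because CPM are shares of a library, they carry no information on the total RNA per cell.

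Among the 78 members, 22 fell, 1 rose and 55 were not called in siBYSL (edgeR quasi-likelihood test, Benjamini-Hochberg adjusted over all 16412 genes tested, threshold 0.05). The fallen members made up 28.2% of the set and the risen member 1.28%. Of all genes tested 18.4% fell and 18.5% rose. Among the 9335 protein-coding genes whose mean siNC level lay in the range of the members (7.08 to 195 CPM), 23.6% fell and 19.3% rose. The share of fallen members thus lay above that of all genes and only a little above that of genes of like level. The changes were small. The median log2 fold change of the members was -0.12, with its quartiles at -0.25 and -0.01, against 0.01 for all genes tested and -0.02 for coding genes of like level. Fold changes ran from -0.44 (MRPS2) to 0.21 (MRPS16) and were negative for 60 members and positive for 18. In 26 members (33.3%) every siBYSL library lay below every siNC library, and in 3 (3.85%) every siBYSL library lay above, against 24.9% and 24.7% of all genes tested and 30.8% and 24.6% of coding genes of like level. The share with lower siBYSL libraries was thus close to that of genes of like level. The heat map of all members shows these differences library by library.

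**Figure D1:**
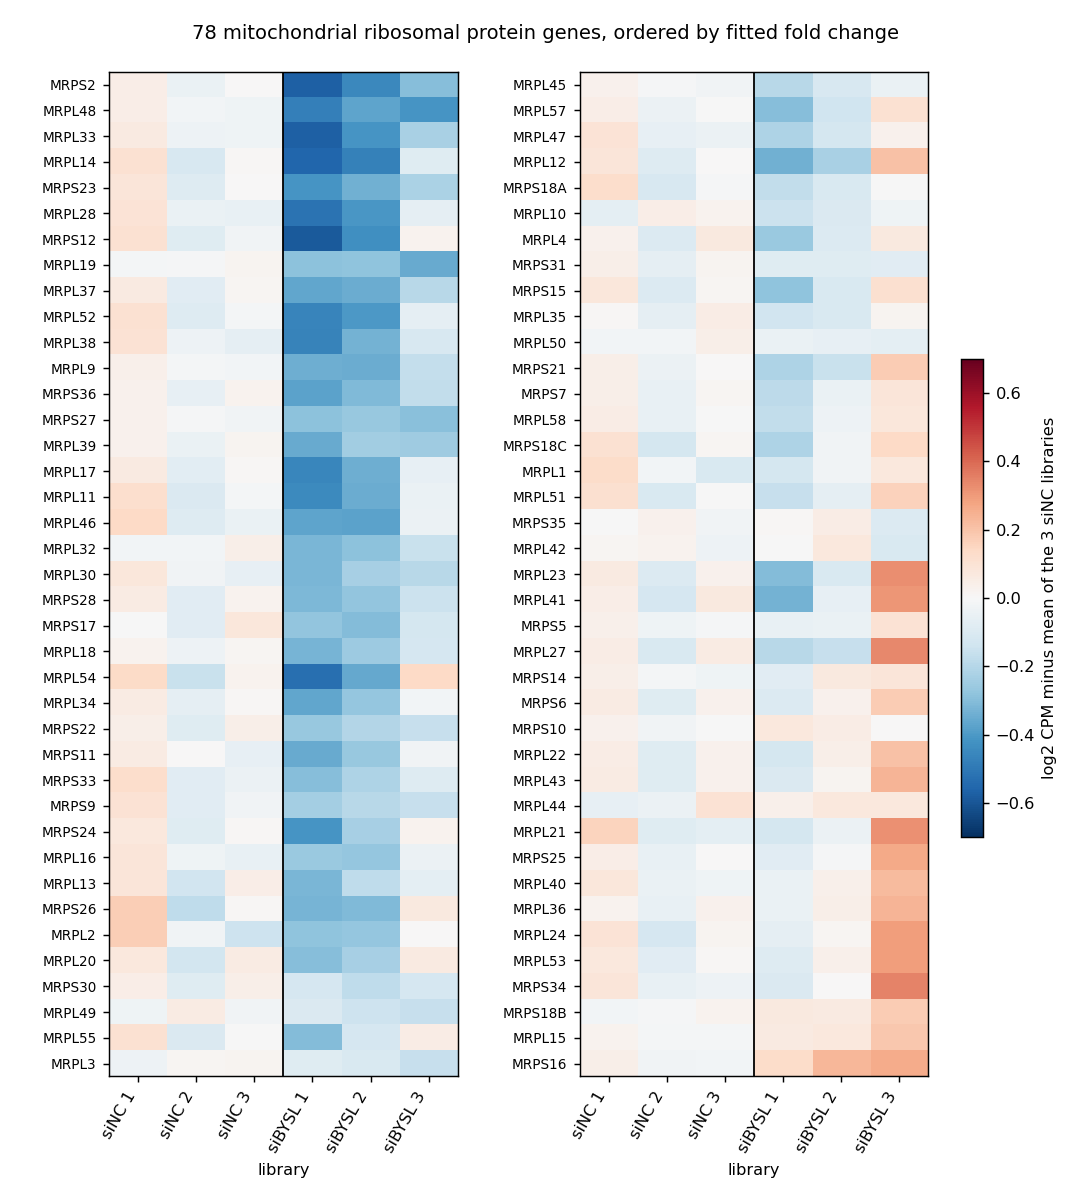
Level of each of the 78 members in each of the 6 libraries, as log2 CPM minus the mean of the 3 siNC libraries (colour scale, blue lower and red higher), with genes in rows ordered by fitted fold change. The left panel starts with MRPS2 and the right panel ends with MRPS16. The siBYSL 3 column is paler or redder than the siBYSL 1 column for most genes.

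The number of fallen members rested on which libraries were used. Without siBYSL 3, 47 members fell (60.3%, against 24.3% of 16743 genes tested in that fit) and the median was -0.20. Without siNC 1 the number was 11 (14.1% against 13.4% of genes), without siNC 3 it was 13 (16.7% against 12.5%) and without siBYSL 2 it was 12 (15.4% against 13.2%). In these last 3 fits the share of members that fell was near that of all genes. With library totals in place of TMM factors, 13 members fell (16.7% against 12.1% of genes) and 3 rose, and the median of the members was -0.04 while that of all genes was 0.09. Under that scaling 67.37% of all called genes were higher, and under upper-quartile factors 60.02%, against 50.04% with TMM factors.

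The large subunit held 15 fallen members (29.4%) and 0 risen members of 51, with a median of -0.12. The small subunit held 6 fallen members (23.1%) and 1 risen member (3.85%) of 26, with a median of -0.08. For comparison, 18.4% of all genes tested fell and 18.5% rose, and 23.6% and 19.3% of coding genes of like level. The small-subunit share of fallen members was thus close to that of genes of like level. Large-subunit members of bacterial families counted 10 fallen of 30 (median -0.13) and those specific to mitochondria 5 of 21 (median -0.10). In the small subunit, 3 of 16 members of bacterial families fell and 1 rose (median -0.07), and 3 of 10 mitochondria-specific members fell (median -0.13). Differences between these classes were not tested. Without siBYSL 3 the fallen members numbered 32 in the large and 14 in the small subunit, without siNC 1 they numbered 7 and 3, without siNC 3 they numbered 9 and 3, and without siBYSL 2 they numbered 8 and 3. In the same order, these fits called 24.3%, 13.4%, 12.5% and 13.2% of all genes lower.

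**Figure D2:**
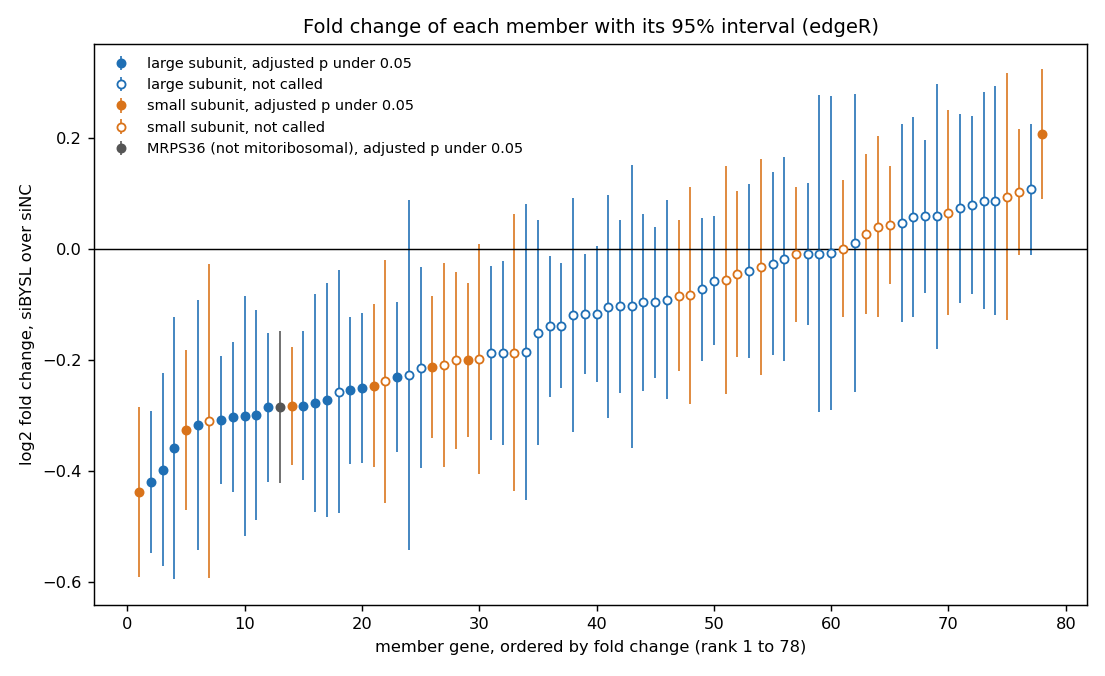
Log2 fold change (siBYSL over siNC) of each of the 78 members from edgeR, with its 95% confidence interval, ordered from lowest to highest. Filled points had an adjusted p under 0.05: 15 large-subunit genes, 7 small-subunit genes of which MRPS16 alone lies above 0, and MRPS36.

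Of the large subunit, MRPL48 had the smallest p of all members. It encodes a mitochondria-specific protein and lies on chromosome 11 (73787316 to 73865133, plus strand; GRCh38, GENCODE 29, as for all gene coordinates). MRPL48 stood at 50.7, 48.3 and 48.1 CPM in siNC and at 35.1, 37.9 and 36.8 CPM in siBYSL. The groups were well apart, and siBYSL 3 lay between the other siBYSL libraries. Its log2 fold change was -0.42 (SE 0.058, adjusted p = 0.000279), and the level fell by 25.2%.

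MRPL33, a small protein of the bacterial L33 family, lies on chromosome 2 (27771717 to 27988087, plus strand). MRPL33 stood at 120, 112 and 113 CPM in siNC and at 77.3, 86.5 and 98.5 CPM in siBYSL, a log2 fold change of -0.40 (SE 0.079, adjusted p = 0.00268). All siBYSL libraries were lower, with siBYSL 3 the nearest to control. MRPL19 is another protein of a bacterial family, and its gene lies on chromosome 2 (75646783 to 75690851, plus strand). MRPL19 stood at 60.8, 61.1 and 62.3 CPM in siNC and at 50.3, 50.5 and 48.2 CPM in siBYSL, a log2 fold change of -0.31 (SE 0.052, adjusted p = 0.00105). Both groups were tight, and here siBYSL 3 was the lowest library.

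MRPL37 is mitochondria-specific and lies on chromosome 1 (54184041 to 54225464, plus strand). MRPL37 stood at 168, 152 and 163 CPM in siNC and at 125, 126 and 140 CPM in siBYSL (log2 fold change -0.30, SE 0.061, adjusted p = 0.00303). The groups did not overlap, and the highest siBYSL library was siBYSL 3. MRPL9, of a bacterial family, lies on chromosome 1 (151759643 to 151763564, minus strand). MRPL9 stood at 81.9, 79.1 and 78.8 CPM in siNC and at 63.0, 62.8 and 71.1 CPM in siBYSL (log2 fold change -0.28, SE 0.061, adjusted p = 0.00414). Again siBYSL 3 was nearest to control, without reaching it.

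MRPL39, a mitochondria-specific protein, is encoded on chromosome 21 (25585656 to 25607517, minus strand). MRPL39 stood at 39.5, 37.5 and 39.3 CPM in siNC and at 30.3, 32.8 and 32.6 CPM in siBYSL (log2 fold change -0.28, SE 0.061, adjusted p = 0.00421). The 3 siBYSL libraries were alike. MRPL32 belongs to a bacterial family, and its precursor is trimmed in mitochondria by the m-AAA protease before it joins the large subunit. The gene lies on chromosome 7 (42932200 to 42948958, plus strand) and stood at 60.2, 60.2 and 62.9 CPM in siNC and at 48.9, 50.1 and 54.8 CPM in siBYSL (log2 fold change -0.25, SE 0.060, adjusted p = 0.00705). AFG3L2, a subunit of the m-AAA protease, rose from 78.4, 80.0 and 77.4 CPM to 110, 102 and 104 CPM (log2 fold change 0.42, SE 0.051, adjusted p = 0.000123), while SPG7, the other subunit, was not called (0.14, SE 0.062, adjusted p = 0.104). MRPL30, of a bacterial family, lies on chromosome 2 (99181079 to 99197626, plus strand). MRPL30 stood at 59.2, 55.0 and 53.8 CPM in siNC and at 44.8, 47.6 and 48.8 CPM in siBYSL (log2 fold change -0.25, SE 0.061, adjusted p = 0.00861), and its call was lost without siNC 1 (adjusted p = 0.0514).

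The other 7 large-subunit members that fell were MRPL11, MRPL14, MRPL17, MRPL18, MRPL28, MRPL38 and MRPL52. Their log2 fold changes ran from -0.36 (MRPL14, SE 0.11, adjusted p = 0.0231) to -0.23 (MRPL18, SE 0.062, adjusted p = 0.0135). MRPL14 stood at 209, 180 and 195 CPM in siNC and at 132, 140 and 183 CPM in siBYSL, so that siBYSL 3 reached into the range of the controls. In MRPL11, MRPL17 and MRPL52 siBYSL 3 likewise overlapped the controls, and in MRPL18, MRPL28 and MRPL38 the groups did not overlap. The weakest call was that of MRPL11, which forms part of the base of the stalk where translation factors bind (log2 fold change -0.27, SE 0.096, adjusted p = 0.0457). MRPL12, the protein of the stalk itself, was not called and stood at 135, 120 and 128 CPM in siNC and at 101, 109 and 147 CPM in siBYSL (log2 fold change -0.10, 95% interval -0.36 to 0.15). Without siBYSL 3, MRPL12 fell (-0.28, adjusted p = 6.98e-05).

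Of the small subunit, MRPS2 fell the most of all members. It belongs to a bacterial family and lies on chromosome 9 (135499984 to 135504673, plus strand). MRPS2 stood at 93.0, 87.3 and 90.2 CPM in siNC and at 60.7, 65.9 and 73.2 CPM in siBYSL. Every siBYSL library was lower, with siBYSL 3 the highest of them. Its log2 fold change was -0.44 (SE 0.069, adjusted p = 0.00065), and the level fell by 26.2%.

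MRPS27 is a mitochondria-specific protein of the pentatricopeptide repeat type, encoded on chromosome 5 (72219409 to 72320646, minus strand). MRPS27 stood at 96.3, 93.8 and 92.9 CPM in siNC and at 77.4, 78.4 and 76.9 CPM in siBYSL (log2 fold change -0.28, SE 0.048, adjusted p = 0.00104). The 3 siBYSL libraries agreed closely and lay well under the controls. MRPS23, also mitochondria-specific, lies on chromosome 17 (57834781 to 57850056, minus strand). MRPS23 stood at 91.5, 81.2 and 86.5 CPM in siNC and at 64.8, 68.3 and 73.9 CPM in siBYSL (log2 fold change -0.33, SE 0.066, adjusted p = 0.0029). The groups did not overlap, although the controls were spread more widely than for MRPS27. MRPS9, MRPS22 and MRPS28 also fell, with log2 fold changes of -0.20, -0.21 and -0.25 (adjusted p = 0.0294, 0.0154 and 0.0143), without overlap between the groups.

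MRPS16 was the only member that rose in this fit. Its protein belongs to a bacterial family, and the gene lies on chromosome 10 (73248843 to 73252693, minus strand). MRPS16 stood at 130, 124 and 125 CPM in siNC and at 138, 148 and 151 CPM in siBYSL. All siBYSL libraries were higher, with siBYSL 1 the nearest to the controls. The log2 fold change was 0.21 (SE 0.053, adjusted p = 0.0104), and the call was lost without siNC 2 (adjusted p = 0.0555), siNC 3 (0.0635) or siBYSL 2 (0.0532). MRPL15 and MRPS18B were the other members with all siBYSL libraries above all siNC libraries, by 0.11 and 0.10 on the log2 scale, and were not called (adjusted p = 0.137 and 0.14); they are named here because they were found to be so placed.

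MRPS36, whose protein belongs to the 2-oxoglutarate dehydrogenase complex, stood at 89.2, 83.9 and 89.0 CPM in siNC and at 67.4, 70.4 and 77.5 CPM in siBYSL. It lies on chromosome 5 (69217760 to 69230129, plus strand). The groups did not overlap (log2 fold change -0.28, SE 0.062, adjusted p = 0.00458).

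**Figure D3:**
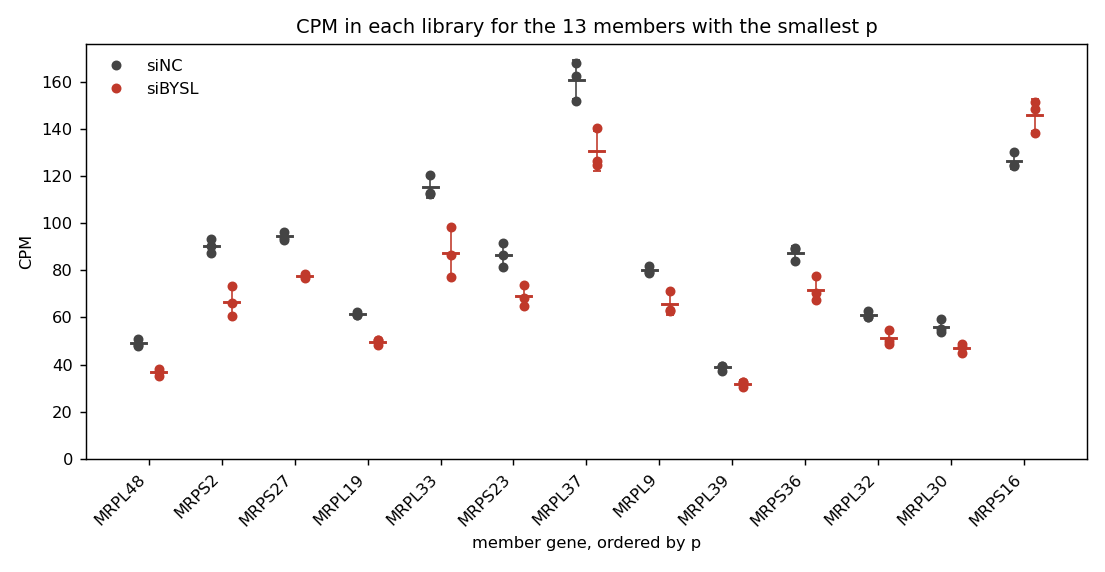
CPM in each library (points) for the 13 members with the smallest p, with the mean (bar) and SD (line) of the 3 siNC and the 3 siBYSL libraries. In each of the 12 fallen genes all siBYSL points lie under all siNC points, and in MRPS16 they lie above.

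A set of 11 fallen members kept the call in each of the 15 alternative fits, which included the loss of each library in turn. These were MRPL9, MRPL19, MRPL32, MRPL33, MRPL37, MRPL39, MRPL48, MRPS2, MRPS23, MRPS27 and MRPS36. The other 11 lost it without siNC 1 (adjusted p from 0.0514 for MRPL30 to 0.172 for MRPL11). Of these, MRPL11, MRPL14, MRPL17, MRPL18, MRPL28, MRPL52, MRPS9, MRPS22 and MRPS28 also lost it without siNC 3, and the same genes together with MRPL38 lost it without siBYSL 2 (adjusted p up to 0.109 and 0.153). Without siBYSL 1, MRPL11, MRPL14, MRPL17, MRPL28, MRPL52 and MRPS9 were lost (adjusted p up to 0.119), and without siNC 2, MRPL11, MRPL17 and MRPL28 (adjusted p up to 0.0659). No fallen member lost its call without siBYSL 3. With library totals, 9 fallen members lost it (adjusted p from 0.0503 for MRPL38 to 0.152 for MRPS9).

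Members that were not called were mostly measured closely. Of the 55, 38 had negative and 17 positive fold changes, and for 40 the whole 95% interval lay within a 1.25-fold change in either direction. For the other 15 the interval reached past a 1.25-fold decrease, and for 0 did it reach past a 1.25-fold increase. The 5 uncalled members with the smallest p all had negative fold changes: MRPS33 (-0.20, adjusted p = 0.0506), MRPL49 (-0.14, 0.0552), MRPL16 (-0.19, 0.0612), MRPL34 (-0.21, 0.0627) and MRPL46 (-0.26, 0.0641). Each of these 5 was called without siBYSL 3. MRPS30, at 59.9, 54.6 and 59.6 CPM in siNC and 53.5, 51.3 and 53.4 CPM in siBYSL, was not called (-0.14, SE 0.058, adjusted p = 0.0822), and neither was MRPS18A (-0.10, SE 0.072, adjusted p = 0.327). Without siBYSL 3, MRPS30 fell (-0.15, adjusted p = 0.0214).

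Per kilobase of annotated exon, levels in siNC spanned from 222 ± 8.7 CPM per kb for MRPL33 to 3.24 ± 0.37 for MRPL2 (SD, n = 3). MRPL33, MRPL14 (203 ± 15) and MRPS24 (165 ± 9.2) were the highest, and in siBYSL they stood at 169 ± 20, 158 ± 29 and 144 ± 22 CPM per kb. The SD ranges of MRPL33 and MRPL14 overlapped in each group, and their difference within each library was not tested. At the low end came MRPL42 (4.86 ± 0.11), MRPS17 (4.13 ± 0.23) and MRPL2, and in siBYSL these stood at 4.83 ± 0.30, 3.50 ± 0.24 and 2.85 ± 0.33. The exon length of MRPL42 is 16006 bases in GENCODE 29, most of it in an annotated 3′ UTR of 14992 bases, and how much of that UTR was transcribed was not measured, so its level per kb is a lower estimate. None of these 3 was called, and MRPS24 was not called either (-0.20, SE 0.094, adjusted p = 0.122). MRPS17 and MRPS24 share 471 and 606 exon bases on the same strand, each with another annotated gene model. How reads from these bases were counted is not known, so the levels per kb of MRPS17 and MRPS24 are uncertain. Without siBYSL 3, MRPS17 (-0.30, adjusted p = 0.0273) and MRPS24 (-0.32, adjusted p = 6.82e-05) fell.

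Summed over all members, the levels were 5928, 5462 and 5701 CPM in siNC and 4855, 5120 and 5755 CPM in siBYSL, or 5697 ± 233 against 5243 ± 462 (SD, n = 3 each). The sum of siBYSL 3 lay above 2 of the 3 controls, so the groups overlapped. The members took 0.554% ± 0.018 of all counts in siNC and 0.538% ± 0.039 in siBYSL. The ratio of small-subunit to large-subunit CPM was 0.524, 0.529 and 0.524 in siNC and 0.560, 0.559 and 0.532 in siBYSL, and every siBYSL value was higher. With 3 against 3 libraries an exact permutation test cannot go below 0.10, and none was run on these sums.

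By library, the median member lay 0.26 below its siNC mean in siBYSL 1 on the log2 CPM scale, 0.15 below in siBYSL 2 and at 0.00 in siBYSL 3, with 72, 62 and 39 of the 78 members below. The medians of the controls were 0.05, -0.06 and 0.00. Cytosolic ribosomal protein genes, 79 in number, showed a wider spread of the same order, with medians of -0.34, -0.20 and 0.11 in siBYSL 1, 2 and 3 and of 0.09, -0.10 and 0.01 in the controls. Of these genes, 9 fell and 0 rose (11.4% and 0.0%, median log2 fold change -0.14), both below the 18.4% and 18.5% of all genes tested. That count rested on siBYSL 3: without it 70 fell (88.6%, median -0.26), and with any other library left out 2 to 6 fell. The medians of all genes tested stayed between 0.00 and 0.01 in every library. The order of the libraries was thus shared by both kinds of ribosomal protein genes and not seen in the median gene.

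**Figure D4:**
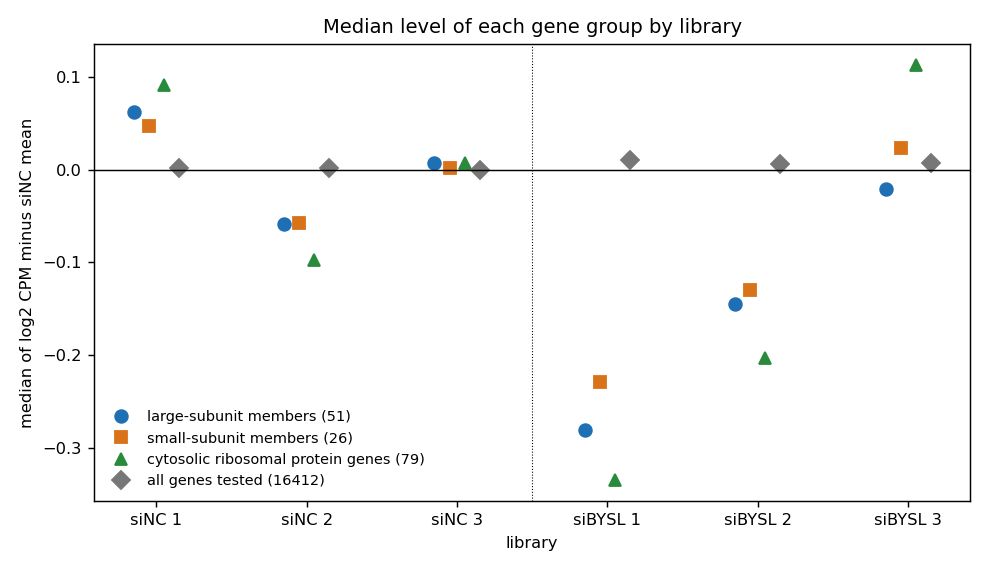
Median over genes of log2 CPM minus the siNC mean, in each of the 6 libraries, for large-subunit members (51), small-subunit members (26), cytosolic ribosomal protein genes (79) and all genes tested (16412). The 3 ribosomal protein groups are lowest in siBYSL 1 and near or above 0 in siBYSL 3.

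The distance of siBYSL 3 from siBYSL 1 and 2 went with the base composition of the transcripts. Over the 78 members, the difference between siBYSL 3 and the mean of siBYSL 1 and 2 had a Pearson r of 0.62 (Spearman rho 0.61) with transcript GC content and -0.44 (rho -0.43) with log2 transcript length. These are correlations across genes of the same libraries, which are not independent replicates. Among 9201 coding genes of like level the values were 0.57 and -0.55, so the relation was not particular to the members. In the 26 members of lowest GC content (34.96 to 45.6%), the medians in siBYSL 1, 2 and 3 were -0.22, -0.14 and -0.08. In the 26 of highest GC content (52.78 to 71.95%) they were -0.30, -0.13 and 0.06. The fitted fold change itself showed a Pearson r of -0.002 with GC content and 0.09 with length. The 11 members that fell in every alternative had a median GC content of 45.6% and a median distance of siBYSL 3 of 0.15, against 48.5% and 0.28 for the other 11 fallen members and 50.4% and 0.24 for the 55 uncalled members. The first of these groups was defined by calls that held with libraries left out, so its distance is in part fixed by that choice. What part GC content or RNA quality had in the position of siBYSL 3 was not tested.

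**Figure D5:**
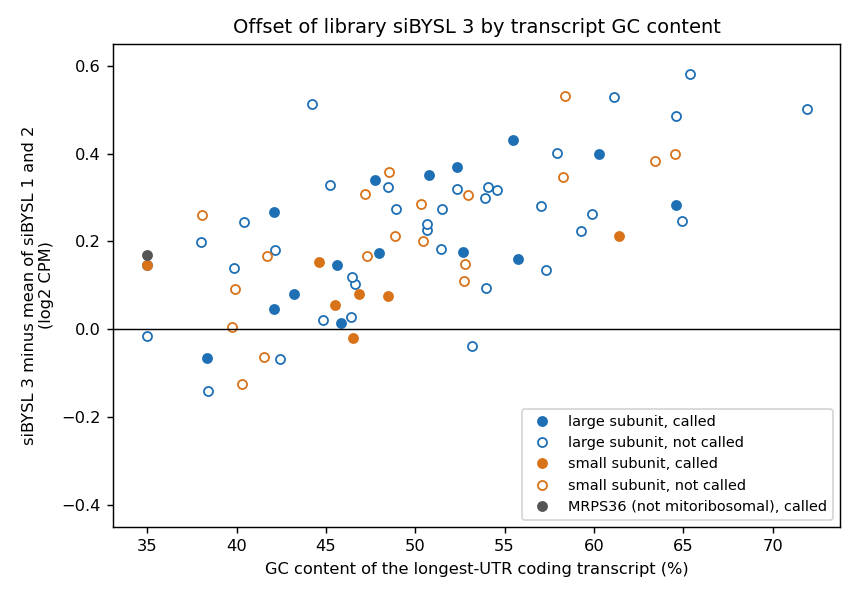
Difference between siBYSL 3 and the mean of siBYSL 1 and 2 (log2 CPM, vertical axis) against the GC content of each member's coding transcript with the longest 3′ UTR (percent, horizontal axis), 1 point per gene, filled where the gene was called. Points climb from left to right (Pearson r = 0.62 over 78 genes).

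MRPL54, MRPS12, MRPL23, MRPL27, MRPL12 and MRPL41 had the widest distances of siBYSL 3, between 0.49 and 0.58, and were chosen for this after their values were seen. MRPS12 stood at 58.6, 51.2 and 53.5 CPM in siNC and at 36.2, 40.4 and 55.3 CPM in siBYSL, so siBYSL 1 and 2 were far below the controls and siBYSL 3 among them. MRPL41 stood at 69.3, 61.8 and 70.3 CPM in siNC and at 53.3, 64.3 and 82.9 CPM in siBYSL, with values on both sides of the controls. None of the 6 was called in the fit of all libraries (adjusted p from 0.0804 for MRPS12 to 0.972 for MRPL41). Without siBYSL 3, the library whose distance chose them, MRPL12, MRPL23, MRPL27, MRPL54 and MRPS12 fell and MRPL41 was not called (-0.19, adjusted p = 0.0506).

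The siRNA guide strand can act on other transcripts whose 3′ UTR pairs with its seed, bases 2 to 8. The guide is shown here with the seed in capitals, because the matching heptamer GCTGAAT was searched for in the members:
BYSL siRNA guide: uAUUCAGCaacgucaucuctt
The heptamer was found in the annotated 3′ UTR of 2 of the 78 members (2.56%), against 11.9% of 13043 tested coding genes, and the members had shorter 3′ UTRs, with a median of 494 bases against 1350 (GENCODE 29). The members were MRPS23, with 2 sites, and MRPS27, with 1 site, all in the last exon. Both fell, as given above, and both kept the call in all 15 alternatives. The sites are shown with 11 bases on either side and the heptamer in capitals, on the strand of the gene:
MRPS23 site near the start of the UTR, chr17:57839731-57839737, minus strand: tctactcactgGCTGAATgttgagctatt
MRPS23 distal site, chr17:57835862-57835868, minus strand: cctacggatttGCTGAATccaaggcgagg
MRPS27 site, chr5:72220683-72220689, minus strand: tgaagtcaccaGCTGAATaccttaaggag
The MRPS27 site is followed by an A, which lengthens the match to the octamer form. The other 20 fallen members held no such heptamer, and with both genes left out the median of the members was -0.11. Whether the guide acted on MRPS23 or MRPS27 was not tested.

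Promoter windows from RefSeq (GRCh38.p14, 250 bases before to 50 bases after the annotated start) were at hand for 69 members. They were searched on both strands for CCGGAAG, the core bound by ETS factors such as the GABP complex, for GCGCANGCG (NRF1), for AAGATGG (YY1) and for CACGTG (the E-box bound by MYC), none of which contains another. The ETS core was present in 29 members (42.0%), against 19.1% of 10524 tested coding genes and 10.7% of 27305 windows. The YY1 motif was present in 23 (33.3%, against 7.39% and 6.06%), the NRF1 motif in 13 (18.8%, against 14.6% and 8.05%) and the E-box in 6 (8.70%, against 10.0% and 7.43%). At least 1 of the 4 motifs was present in 49 members (71.0%, against 41.0% of tested coding genes).

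A set of 4 members that changed is shown from 70 bases before the RefSeq start to 30 bases from it, on the gene's strand. Each holds a motif close to that start. For MRPL48 and MRPS27 the stretch lies wholly within the GENCODE 29 gene, whose outermost start is further upstream. The window of MRPS16 also held a YY1 motif at -222 from the start, outside the stretch shown. Capitals mark the ETS core (CCGGAAG, or CTTCCGG on the other strand) or the YY1 motif (AAGATGG):
MRPL33, chr2:27771649-27771748, plus strand: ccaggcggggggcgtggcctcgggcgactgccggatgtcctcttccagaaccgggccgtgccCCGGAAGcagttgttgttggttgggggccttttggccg
MRPL48, chr11:73787804-73787903, plus strand: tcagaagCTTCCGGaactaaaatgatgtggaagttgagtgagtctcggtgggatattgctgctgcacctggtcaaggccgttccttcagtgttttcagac
MRPS27, chr5:72320211-72320310, minus strand: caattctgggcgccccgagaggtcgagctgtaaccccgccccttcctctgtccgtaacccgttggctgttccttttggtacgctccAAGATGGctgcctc
MRPS16, chr10:73252615-73252714, minus strand: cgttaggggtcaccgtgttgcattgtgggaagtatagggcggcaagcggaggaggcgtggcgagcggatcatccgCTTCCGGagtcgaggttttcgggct
The ETS core thus stood both in windows of members that fell and in that of MRPS16, which rose. Over all windows, 8 of 29 members with the ETS core fell and 12 of 40 without it. For the YY1 motif the numbers were 5 of 23 with and 15 of 46 without, for NRF1 5 of 13 and 15 of 56, and for the E-box 1 of 6 and 19 of 63. These counts come from the fit of all libraries, in which 18.4% of all genes tested and 23.6% of coding genes of like level fell. Differences between these classes of windows were not tested. The median log2 fold change was -0.12 both with and without the ETS core and both with and without the YY1 motif, and for NRF1 it was -0.15 with and -0.11 without. MRPS2, MRPL9, MRPL18, MRPL19 and MRPL39 fell and had none of the 4 motifs in these windows.

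A list of 9 transcriptional regulators of mitochondrial biogenesis, among them factors that bind these motifs, held 2 genes that fell (22.2%) and 1 that rose (11.1%), with a median of -0.01, against 18.4% and 18.5% of all genes tested. PPARGC1A, a coactivator of mitochondrial gene expression, rose from 8.44, 8.60 and 7.75 CPM in siNC to 17.5, 17.5 and 14.96 CPM in siBYSL (log2 fold change 1.01, SE 0.092, adjusted p = 2e-05), and the groups were far apart. GABPB1, a subunit of the GABP complex, fell (log2 fold change -0.25, SE 0.082, adjusted p = 0.0347), and so did ESRRA, the estrogen-related receptor alpha (-0.18, SE 0.056, adjusted p = 0.0275). Neither of these 2 calls was firm: that of GABPB1 was lost without siNC 1, 2 or 3 or siBYSL 1 (adjusted p up to 0.114), and that of ESRRA without any library other than siBYSL 3 (up to 0.14). GABPA, NRF1, YY1 and MYC were not called (log2 fold changes 0.20, -0.14, 0.09 and 0.06). Without siBYSL 3, 2 regulators fell and 4 rose, in a fit that called 24.3% of all genes lower and 23.5% higher.

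Many members start close to a gene on the opposite strand. An opposite-strand coding neighbour starting within 1000 bases was annotated for 29 of the 78 (37.2%), against 17.0% of 13361 coding genes. Such a neighbour could start on either side of the member's start, so some pairs overlap. Of the members with such a neighbour 9 of 29 fell, and of those without 13 of 49. In the same fit 18.4% of all genes tested and 23.6% of coding genes of like level fell. Both genes of a pair were tested in 28 cases, in which MRPL46 and MRPS11, which are neighbours of each other, count under each name. Member and neighbour fell together in 2 pairs, MRPL18 with TCP1 (-0.37, adjusted p = 0.000224) and MRPL9 with OAZ3 (-0.69, adjusted p = 0.0461). In another 2 pairs the member fell and the neighbour rose, MRPL11 with PELI3 (0.60, adjusted p = 0.000536) and MRPL52 with SLC7A7 (0.40, adjusted p = 0.0018). These 4 pairs were named after their values were seen, and how often other pairs of coding neighbours are called was not counted. MRPL9 and OAZ3 share 242 exon bases on opposite strands, so reads may be shared between them.

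Some reads may be shared between genes. Exons of 34 members overlap those of another annotated gene, among them 12 of the 23 called members. The overlap is on the same strand for MRPL9, MRPL28, MRPL30, MRPL38, MRPS16 and MRPS28, and MRPL30, which shares 564 and 380 bases with 2 other annotated gene models, and MRPS28 (471 bases) share the most. On the opposite strand, the overlaps of MRPL9, MRPL19, MRPL32, MRPL37, MRPL38, MRPS2, MRPS9 and MRPS22 run from 24 bases (MRPL32 with PSMA2) to 290 bases (MRPS22 with PRR23A). The library kit marked strand, but whether counting used it is not given in the sources used here, and without it such reads cannot be told apart. Annotated pseudogenes of called members held at most 6 counts in a library.

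The other parts of the mitochondrial translation system held called genes in both directions. Their counts stand against 18.4% fallen and 18.5% risen of all genes tested in the fit of all libraries. In the fits without 1 library these shares were 12.5 to 17.0% fallen and 12.6 to 16.7% risen, or 24.3% and 23.5% without siBYSL 3. Of 5 mitoribosomal proteins with other symbols, DAP3, a GTP-binding protein of the small subunit, fell from 171, 165 and 169 CPM to 137, 146 and 145 CPM (log2 fold change -0.24, SE 0.048, adjusted p = 0.00281). PTCD3, AURKAIP1, CHCHD1 and GADD45GIP1 were not called (-0.03, -0.23, -0.26 and 0.04). Without siBYSL 3, 3 of the 5 fell.

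Of 27 tested mitoribosome assembly factors 5 fell (18.5%, near the 18.4% of all genes) and 2 rose (7.4%, against 18.5%), with a median of -0.04. RCC1L, which acts in mitochondrial ribosome assembly, rose from 38.2, 39.1 and 36.2 CPM to 57.9, 58.2 and 61.5 CPM (log2 fold change 0.65, SE 0.058, adjusted p = 1.8e-05), which was a larger change than that of any member. TRMT61B, a methyltransferase of mitochondrial RNA, rose by 0.28 (adjusted p = 0.0194). The genes that fell included MPV17L2 (-0.43, adjusted p = 0.00288), the RNA helicase DHX30 (-0.27, 0.00145), the rRNA chaperone ERAL1 (-0.22, 0.00712) and the rRNA methyltransferase TFB1M (-0.28, 0.0224). The calls of RCC1L, DHX30 and MPV17L2 held without each library. That of ERAL1 was lost without siNC 3 (adjusted p = 0.0518), that of TFB1M without any library other than siBYSL 3 (up to 0.0959) and that of TRMT61B without siNC 2, siNC 3 or siBYSL 2 (up to 0.085). The number of fallen factors was 2 without siNC 3, 3 without siNC 1, siNC 2 or siBYSL 2 and 8 without siBYSL 3. GTPBP6 and MRM2 did not pass the filter on low counts.

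Among 16 tested translation factors 5 rose (31.2%, against 18.5% of all genes) and 1 fell (6.2%, against 18.4%), with a median of -0.03. The risen genes were MTFMT, which formylates the initiator tRNA (0.39, SE 0.072, adjusted p = 0.00164), the initiation factors MTIF2 (0.25, adjusted p = 0.00487) and MTIF3 (0.28, 0.016), GUF1, a GTPase of the mitochondrial ribosome (0.19, 0.0341), and the RNA-binding protein LRPPRC (0.20, 0.0333). The release factor MTRF1L fell (-0.28, adjusted p = 0.00927). The calls of MTFMT, MTIF2 and MTRF1L held without each library. Those of GUF1 and LRPPRC were lost without any library other than siBYSL 3 (adjusted p up to 0.133 and 0.12), and that of MTIF3 without siNC 2, siNC 3 or siBYSL 2 (up to 0.0789). The number that rose was 2 without siNC 2, siNC 3 or siBYSL 2 and 3 without siNC 1 or siBYSL 1, and without siBYSL 3 5 factors fell and 6 rose. TUFM, the elongation factor, was not called (-0.11, SE 0.063, adjusted p = 0.186), and TSFM did not pass the filter.

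In the list of mitochondrial transcription and RNA processing 5 of 17 genes fell (29.4%, against 18.4% of all genes and 23.6% of the coding genes of like level to the members) and 1 rose (5.9%, against 18.5%), with a median of -0.14. The list also held genes of mitochondrial DNA replication, namely TWNK, POLG, POLG2 and SSBP1. The fallen genes TWNK and SSBP1 are thus not genes of transcription or RNA processing. ELAC2, which trims tRNA 3′ ends (-0.26, adjusted p = 0.00337), the helicase TWNK (-0.24, 0.0131), the single-strand DNA binding protein SSBP1 (-0.24, 0.0128), the RNase P subunit TRMT10C (-0.14, 0.0457) and the transcription factor TFAM (-0.21, 0.0482) fell, and the poly(A) polymerase MTPAP rose (0.25, 0.00559). ELAC2 and MTPAP kept their calls without each library. TWNK and SSBP1 lost them without siNC 1, siNC 3 or siBYSL 2 (adjusted p up to 0.0623 and 0.0685), TFAM without siNC 1, 2 or 3 (up to 0.135) and TRMT10C without any library other than siBYSL 3 (up to 0.173). The number that fell was 1 without siNC 1 or siNC 3, 2 without siBYSL 2, 3 without siNC 2 and 6 without siBYSL 3.

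Of 10 mitochondrial chaperones and proteases 2 fell and 2 rose (20.0% each, near the shares of all genes; median -0.03). TRAP1, a chaperone of the Hsp90 family, fell (-0.32, SE 0.060, adjusted p = 0.00167), and so did CLPP, a matrix protease (-0.36, SE 0.093, adjusted p = 0.0114), whose call was lost without siNC 1 (adjusted p = 0.0546) or siBYSL 2 (0.0576). LONP1, another matrix protease, rose by 0.24 (SE 0.050, adjusted p = 0.00378), as did AFG3L2, given above. The number that fell was 1 without siNC 1 or siBYSL 2 and 3 without siBYSL 3.

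Of 15 genes of the mitochondrial genome, the source of the rRNAs and the mRNAs of this ribosome, 5 fell (33.3%, against 18.4% of all genes) and 0 rose, with a median of -0.10. MT-ND4L stood at 1293, 1431 and 1289 CPM in siNC and at 1047, 974 and 959 CPM in siBYSL (log2 fold change -0.43, SE 0.062, adjusted p = 0.000375), without overlap. The others that fell were MT-ND5 (-0.27, adjusted p = 0.00299), MT-ATP8 (-0.27, 0.0438), MT-ND1 (-0.17, 0.0336) and MT-ND2 (-0.14, 0.0494). The genes next to MT-ND4L and MT-ATP8, namely MT-ND4 (-0.15, adjusted p = 0.0616) and MT-ATP6 (-0.01, 0.894), were not called. How reads were divided between such neighbours was not tested. Without siBYSL 3, MT-ND4 fell (-0.18, adjusted p = 0.000961) and MT-ATP6 was not called. The calls of MT-ND4L and MT-ND5 held without each library. Those of MT-ND1 and MT-ND2 were lost without any library other than siBYSL 3 (adjusted p up to 0.155 and 0.194), and that of MT-ATP8 without siNC 1, 2 or 3 or siBYSL 2 (up to 0.174). The number that fell was 2 without siNC 1, siNC 2, siNC 3 or siBYSL 2, 3 without siBYSL 1 and 10 without siBYSL 3. The rRNAs of the mitochondrial ribosome, MT-RNR1 and MT-RNR2, were not called (0.03, SE 0.15, and 0.15, SE 0.056), and poly(A) selection limits what their counts can show. MT-RNR2 lay close to the threshold (adjusted p = 0.0541), at 8314, 8448 and 8608 CPM in siNC and 8913, 9455 and 9824 CPM in siBYSL, without overlap. It rose with library totals (adjusted p = 0.00586), upper-quartile factors (0.0241), the stricter filter (0.0434) and limma-voom (0.0347), and without siBYSL 1 (0.0255) or siBYSL 3 (0.0232). Without siBYSL 3, MT-RNR1 fell (-0.21, adjusted p = 0.0124).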

How the data were processed

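RNA-seq counts of 6 libraries were analysed, 3 siNC and 3 siBYSL cultures, grouped by the labels' titles. The deposited values are raw counts per gene (whole numbers, versioned Ensembl identifiers). HISAT2, DESeq2 and GRCh38.p13 are named per the submitters' processing notes, while the sources used here do not name the counting tool, its strand setting or the annotation release. Library totals were 27754883 to 32088817 counts.

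Counts were filtered with filterByExpr (16412 of 29538 genes kept), scaled with TMM factors (0.9645 to 1.0405) and compared with the edgeR 4.0.16 quasi-likelihood F test (robust, group only, two-sided, R 4.3.3), p-values being adjusted by Benjamini-Hochberg across the 16412 genes and called under 0.05. All p-values in the report come from this test unless another fit is named. They measure the spread between 3 and 3 cultures of 1 line. The common biological coefficient of variation was 0.0649. On data simulated for this comparison (16412 genes), 32% of 50 genes changed 1.25-fold, 72% at 1.5-fold, 90% at 2-fold and 98% at 4-fold were called, with 8 false calls among 16212 genes. The simulation changed 50 genes at each fold, far fewer than the 6059 called in the data. No simulated library stood apart as siBYSL 3 did, so these rates need not hold for the data. Log2 CPM used a prior count of 2. Gene positions, lengths, GC content and 3′ UTRs came from GENCODE 29 (78 of 78 members matched), and promoter windows from RefSeq (69 matched).

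The members, roles and lists were chosen with earlier results of these data known, so no test was run over a list. Named were BYSL, each called member (with values in all libraries for the 12 of smallest p), the 5 uncalled members of smallest p, the 3 highest and 3 lowest per kb, members with the guide heptamer, MRPS18A, MRPS30 and MRPS36, and up to 6 called genes of each list. Other genes named are marked as such or complete a list. Alternatives were DESeq2 1.42.0 size factors and Wald test, limma 3.58.1 voom, upper-quartile factors, library totals, a filter of 1 CPM in at least 3 libraries (stricter) or none, a replicate block, mitochondrial transcripts left out and each library left out in turn. Python 3.11.15 (pandas 2.3.3, NumPy 2.4.6, Matplotlib 3.10.9) was used for tables and figures.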

Additional observations from a re-analysis of the deposited data

How the results depend on the processing

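The median of the members stayed negative in all 16 alternatives, from -0.20 without siBYSL 3 to -0.04 with library totals. The number that fell was 22, and it was 13 with library totals, 31 with no filter and 11 to 47 with 1 library left out. It lay between 17 and 26 in the remaining alternatives. The number that rose was 1, with 3 under library totals, 3 under upper-quartile factors and 0 to 1 with 1 library left out. MRPL42, which was not called, turned from -0.01 to 0.070 with library totals, to 0.035 with upper-quartile factors and to 0.001 with the stricter filter, and ran from -0.052 to 0.038 with 1 library left out, including 0.002 without siNC 2. The cause was not tested. Of 510 values of single named members under the alternatives, 427 kept their direction and side of the threshold, 58 lost the call, 20 gained it and 5 turned direction. Of the named genes of the other lists, 12 lost the call with library totals and 7 with upper-quartile factors. Of the cytosolic ribosomal protein genes 9 fell in the main fit (11.4%). The number was 2 with library totals (2.5%, against 12.1% of all genes), 3 with upper-quartile factors (3.8% against 14.7%) and 37 with no filter (46.8% against 11.8%). With a replicate block 23 members fell (29.5%, against 16.8% of all genes). The sample titles number the replicates but do not say whether same-numbered cultures were run together. Same-numbered libraries deviated with correlations of -0.13, 0.06 and 0.01, and differently numbered ones with -0.168 to 0.151. Deviations from a mean of 3 libraries are bound to each other, so these correlations cannot settle whether the numbers are pairs. The block was not used as a pairing. It lost MRPS9 and gained MRPL34 and MRPS12. The median SE of the members was 0.073 on the log2 scale. It takes in the spread between cultures as well as depth, and 3 cultures a group limit the detection of smaller differences.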
